A study of Mus musculus with 4 samples.

Results

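The E-box CACGTG is the core DNA element recognised by MITF, a basic helix-loop-helix leucine zipper factor that directs pigment cell genes. Among the DNA array probes on which antibodies against UV photoproducts were measured, one set carried this E-box in a sequence of 59 bases, and a matching set carried a changed site, TGCGTG, in the same sequence. Members were chosen by name: the prefix MITF_ebox_59_ for the E-box probes and MITF_sebox_59_ for the changed ones, each followed by the 4 varied bases that come directly after the site. Each set held every combination of the 4 varied bases once. Probes with the same varied bases formed a pair, and the pairs took up 512 probes, out of 6126 probe names with 5480 distinct sequences on the array.

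Ultraviolet light joins neighbouring pyrimidines of one DNA strand into cyclobutane pyrimidine dimers (CPD) or into 6-4 photoproducts (6-4PP). In both kinds of lesion the joined bases are T or C, so a stretch of DNA can form them only where 2 pyrimidines are adjacent, on either strand. Antibodies raised against each lesion bind damaged DNA and give a fluorescence signal that can be read spot by spot.

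The study held 4 arrays, 1 per group, of designed DNA that belongs to no gene, with the mouse given as the organism in the labels. An anti-CPD antibody, diluted 1 in 400, was placed on 1 non-irradiated array (CPD non-UV) and 1 irradiated array (CPD UV). An anti-6-4PP antibody, diluted 1 in 80, was placed on 1 non-irradiated array (6-4PP non-UV) and 1 irradiated array (6-4PP UV). Neither UV dose nor scanner settings were given in the labels used here. For the 6-4PP antibody, each array's title contradicts its condition field, and arrays are called here by the field.

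The following pairs show what was compared and carry the results given after them. Capitals mark the site of 6 bases, at positions 10 to 15 from the 5′ end, and the varied bases at positions 16 to 19. The changed site differed from the E-box by C10T and A11G, and the other 57 bases of a pair were identical.

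The pair with varied bases AGTC was brighter with the changed site on both non-irradiated arrays.
E-box AGTC: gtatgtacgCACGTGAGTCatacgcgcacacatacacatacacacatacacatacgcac
changed AGTC: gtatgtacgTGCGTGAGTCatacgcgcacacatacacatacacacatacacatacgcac

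The pair with CCTT was brighter with the E-box on both 6-4PP arrays.
E-box CCTT: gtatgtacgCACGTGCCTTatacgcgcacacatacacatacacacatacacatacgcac
changed CCTT: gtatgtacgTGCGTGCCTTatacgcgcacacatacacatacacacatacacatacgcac

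The pair with TTTC had the smallest adjusted p on the 6-4PP UV array.
E-box TTTC: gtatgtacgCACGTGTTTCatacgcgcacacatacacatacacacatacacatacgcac
changed TTTC: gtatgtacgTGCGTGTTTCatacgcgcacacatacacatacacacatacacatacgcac

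The pair with ATTA was among the brightest on both irradiated arrays.
E-box ATTA: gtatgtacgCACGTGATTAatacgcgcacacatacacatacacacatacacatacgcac
changed ATTA: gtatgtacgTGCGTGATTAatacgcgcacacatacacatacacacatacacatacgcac

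The pair with GCGC was the one pair called brighter with the changed site on the 6-4PP UV array.
E-box GCGC: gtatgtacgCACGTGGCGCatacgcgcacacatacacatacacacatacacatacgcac
changed GCGC: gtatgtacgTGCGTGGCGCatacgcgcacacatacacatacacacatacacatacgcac

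Neither site holds adjacent pyrimidines on either strand, so both members of a pair offered the same dipyrimidine steps. Such a step is a pair of neighbouring T or C bases, counted on both strands without the last 10 bases at the 3′ end. The labels do not say whether the DNA on the array was double-stranded, and every step given for the opposite strand assumes that it was. All steps lay in the varied bases or at their edges. A first varied base of A, as in AGTC and ATTA, puts a TC step on the opposite strand, with its C opposite the last G of the site. A first varied base of G puts a CC step there. There were 80 pairs with 1 step, 160 with 3 and 16 with 5. The pair with CCTT held CC, CT and TT on the listed strand, and TTTC held TT, TT and TC there.

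The value of a probe was the median fluorescence intensity of its replicate spots, in scanner units with a ceiling of 65535, over 10 spots less those the authors had flagged. On the CPD UV array the E-box probes ranged from 1090 (GGCG) through a median of 4420 to 12176 (ATTA). The changed probes ranged there from 1304 (GTAT) through 4634 to 12104 (TTTT). On the 6-4PP UV array the E-box probes ranged from 4149 (CTGT) through 19819 to the ceiling, and the changed probes from 4416 (CGGC) through 19215 to the ceiling. Both libraries thus spanned nearly the same range on each irradiated array.

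Without irradiation the probes lay far lower. E-box probes on the CPD non-UV array had a lowest, median and highest value of 25.5, 29.5 and 45.0, and changed probes 25.5, 29.5 and 44.0. The median of all probes of that array was 30.0. On the 6-4PP non-UV array E-box probes spanned 52.0 to 95 with a median of 60.5, and changed probes 54.0 to 76.5 with a median of 63.0, beside 56.5 for all probes. Here the highest E-box probe, CCTT, lay above every changed probe.

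The spread over the spots of a probe set the precision of these values. As an SD of log2 intensity over spots, its median was 0.20 for E-box and 0.21 for changed probes on the CPD non-UV array, and 0.71 and 0.68 on the CPD UV array. It was 0.15 for both libraries on the 6-4PP non-UV array, and 0.28 and 0.33 on the 6-4PP UV array. Spots thus scattered most on the CPD UV array. The median intensity around the members' spots moved from 1136 to 7874 across that array, and the deposited spatially adjusted intensity divides by this local level. Of 2560 spots per library, flags removed 47 E-box and 61 changed spots with 6-4PP non-UV, 15 and 20 with 6-4PP UV, and 0 with the anti-CPD antibody.

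On each irradiated array the members of a pair had similar levels, while the pairs ranged widely. Over all these pairs, the levels of E-box and changed probes on the 6-4PP UV array had a Pearson correlation of 0.99 on the log2 scale. On the CPD UV array it was 0.81, and 0.95 with the spatially adjusted intensity. On the non-irradiated arrays it was 0.64 for CPD and 0.28 for 6-4PP. These correlations describe pairs that share an array and all but 2 bases.

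Pairs were tested on each array by an exact two-sided permutation test of the mean log2 intensity of the spots. P-values were adjusted by Benjamini-Hochberg over the 2560 pairs of a site and a changed site in 10 library pairs, and a pair was called at an adjusted p under 0.05. The test compares spots of 1 array, and with 1 array per group no test between conditions was possible. With 10 against 10 spots the smallest p it can give is 1.08e-05.

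On the CPD UV array no pair was called in either direction. The E-box member was brighter in 110 pairs and the changed member in 145, with 1 equal, and E-box minus changed had a median of -0.07 in log2 units. Over all 2560 pairs of that array, 0.0781% were called brighter with the site and 0.0781% with the changed site. Of the members' pairs, 18 had an unadjusted p under 0.05 by the exact permutation test, 4 with the brighter E-box and 14 with the brighter changed site, and the smallest adjusted p was 0.377. These 18 are 7.03% of the members' pairs, beside 8.36% over all pairs of the array. The rank-sum form of the permutation test also called 0 pairs. The median absolute difference, 0.23, equalled that over all pairs at 2 decimals and was below the median standard error of 0.32.

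The largest differences on the CPD UV array lay in dim pairs with widely scattered spots. GGCG gave 1090 with the E-box, with spots from 798 to 5991, and 3781 with the changed site, with spots from 779 to 8643. The log2 difference of its medians was -1.79, but that of its mean log2 values was -0.83 ± 0.51 (SE over spots), and the spots overlapped over almost their whole range. GCGG gave 1189 against 3508, a difference of -1.56 between medians. In the other direction TCTC gave 4795 with the E-box and 2117 with the changed site, a difference of 1.18, with spots of 937 to 8262 against 1245 to 6036. TCCT followed with 3248 against 1651, a difference of 0.98. With the spatially adjusted intensity the log2 differences shrank to -0.42 for GGCG, -0.44 for GCGG and 0.08 for TCTC, and that of TCCT changed sign to -0.08. Among 24 named pairs of this array, 9 changed sign under that adjustment, none of them called.

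With the unadjusted intensity the bright pairs of the CPD UV array differed less. ATTA gave 12176 with the E-box, with spots from 6641 to 14707, and 11695 with the changed site, with spots from 6280 to 15454. TTTT gave 11860 and 12104, and AATT 10892 and 11531. The differences of the mean log2 values of these 3 pairs were -0.0007 ± 0.19, -0.005 ± 0.13 and -0.08 ± 0.18 (SE over spots). All lay within their standard errors. With the spatially adjusted intensity the log2 differences of medians were -0.03 for ATTA, 0.42 for TTTT and 0.09 for AATT. That of TTTT was then about as large as that of GGCG, in the other direction, and was not called.

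With the spatially adjusted intensity, 2 pairs of the CPD UV array were called, both brighter with the changed site. The adjusted medians of CGGT were 2157 with the E-box and 2790 with the changed site, a mean log2 difference of -0.46 ± 0.12 (SE) with an adjusted p of 0.0382 by the exact permutation test. For ACGC they were 2639 and 3449, with -0.47 ± 0.12 and an adjusted p of 0.0383. The unadjusted medians of ACGC went the other way, with 2659 for the E-box and 1524 for the changed site. The correlation of the pair differences before and after the adjustment was 0.28 over the pairs, and the changed member was brighter in 159 pairs after it.

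On the 6-4PP UV array 5 pairs were called brighter with the E-box, described next, and 1, GCGC, with the changed site. Over all pairs of the array, 2.42% were called brighter with the site and 7.93% with the changed site, where p53 library pairs gave 192 of 203 calls. Without them the shares were 2.88% and 0.537%, beside 1.95% and 0.391% of the members. The E-box member was brighter in 131 pairs and the changed member in 101, with 24 equal at the ceiling, and the differences had a median of 0.0065 in log2 units. Differences were small: 2 pairs exceeded 1.5-fold, TGGC and GCGC, and the median absolute difference was 0.090 beside 0.12 over all pairs.

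TTTC gave 26369 with the E-box, with spots from 22136 to 34674, and 21390 with the changed site, with spots from 19436 to 24881. Its mean log2 difference was 0.33 ± 0.06 (SE), with an adjusted p of 0.00129 by the exact permutation test. The spots of its members overlapped. On the other arrays TTTC was not called: 7794 against 6579 with CPD UV, 34.0 against 37.0 with CPD non-UV and 57.5 against 63.0 with 6-4PP non-UV.

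ACTA gave 28001 with the E-box and 22891 with the changed site, whose spots ran from 7871 to 28062 (adjusted p = 0.0163, exact permutation test). GTTT gave 25041 and 20096 (adjusted p = 0.0423, exact permutation test). CCTT, given further on with its values on all arrays, was the other bright pair. These 4 pairs were brighter with the E-box by 1.20- to 1.25-fold.

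The pairs past 1.5-fold were dim. TGGC gave 6804 with the E-box, with spots from 4333 to 10046, and 4505 with the changed site, with spots from 3268 to 6244 (adjusted p = 0.0383, exact permutation test). GCGC gave 4595 with the E-box, with spots from 2773 to 7378, and 7293 with the changed site, with spots from 4728 to 14308 (adjusted p = 0.0439, exact permutation test). Both pairs hold a single CC step on the opposite strand, at the edge of the site in GCGC and inside the varied bases in TGGC. Their differences pointed in opposite directions.

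Other dim pairs of the 6-4PP UV array had medians nearly as far apart but were not called. TTGC gave 5355 with the E-box and 7570 with the changed site (adjusted p = 0.188, exact permutation test). CTGC gave 5079 and 7078, and CTAC 4251 and 5835. TAAC gave 5867 and 4508, and ACAC 8868 and 6846, with spots of 7083 to 12202 and 3043 to 9384 (adjusted p = 0.0904, exact permutation test). The spots overlapped in each of these pairs.

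None of these 6 calls held with the spatially adjusted intensity, although all 6 kept their direction. Under that intensity GTTG was called brighter with the E-box and GCCT with the changed site. GTTG had adjusted medians of 66813 and 55155 (adjusted p = 0.0154, exact permutation test). All E-box spots of GTTG lay at the ceiling, so its E-box value is a lower bound. GCCT had adjusted medians of 6806 and 9313 (adjusted p = 0.0140, exact permutation test).

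The ceiling limited the comparison among the brightest pairs of the 6-4PP UV array. It was reached by the median of both members in 24 pairs, of the E-box member alone in 3 and of the changed member alone in 2. Of these 29 pairs, 20 began with A and 28 held a TC step, beside 174 of all pairs that hold one. ATTA and ATCA were among those with both members at the ceiling, and such values cannot be ranked. Among pairs below it, AGTC gave 60968 with the E-box and 48118 with the changed site, with some spots of both at the ceiling (adjusted p = 0.252, exact permutation test).

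The non-irradiated arrays give the background of each antibody on the same probes. On the CPD non-UV array 0 pairs were called brighter with the E-box and 1, AGTC, with the changed site. Over all pairs of the array the shares were 0.391% and 1.91%. The p53 library pairs gave 45 of the 49 calls with the changed site, and without them its share was 0.195%. The E-box member was brighter in 133 pairs and the changed member in 102, with 21 equal, and the median difference was 0.02. An unadjusted p under 0.05 by the exact permutation test was reached in 6 pairs with the brighter E-box and 9 with the brighter changed site. Together these are 5.86% of the pairs, beside 11.5% over all pairs of the array. The rank-sum form of the permutation test also called 0 pairs with the brighter E-box.

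AGTC on the CPD non-UV array gave 27.5 with the E-box, with spots from 25 to 43, and 43.5 with the changed site, with spots from 35 to 63. The mean log2 difference was -0.60 ± 0.13 (SE), with an adjusted p of 0.0171 by the exact permutation test. This changed probe lay among the 2 brightest of its library, with AGTA at 44.0. AGTA with the E-box gave 31.5 (adjusted p = 0.162, exact permutation test), and AGTG gave 27.0 against 34.5 (adjusted p = 0.0699, exact permutation test). With the spatially adjusted intensity AGTA, AGTC and AGTG were all called brighter with the changed site, with adjusted p of 0.00099, 0.00099 and 0.00264 by the exact permutation test.

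The same varied bases stood out on the 6-4PP non-UV array, where a different antibody was used. AGTC gave 56.0 with the E-box, with spots from 46 to 64, and 75.5 with the changed site, with spots from 68 to 89. AGTA gave 57.0 with spots from 50 to 61, against 76.5 with spots from 63 to 90. In neither pair did the spots overlap, and both had an adjusted p of 0.00213 by the exact permutation test. AGTT gave 59.5 against 65.5 (adjusted p = 0.0397, exact permutation test). AGTG gave 66.0 against 74.5 and was not called (adjusted p = 0.421, exact permutation test).

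Under irradiation the AGT pairs did not keep that direction in a called form. On the CPD UV array AGTC gave 5206 with the E-box and 6782 with the changed site, and AGTA 5639 and 8473. Their adjusted p by the exact permutation test were 0.707 and 0.879. With 6-4PP UV both AGTA members lay at the ceiling.

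On the 6-4PP non-UV array 9 pairs were called brighter with the E-box and 16 with the changed site. Over all pairs of the array the shares called were 4.49% and 10.2%, beside 3.52% and 6.25% of the members. Of the 260 pairs called with the brighter changed site, 222 came from the p53 library pairs. Without these the shares were 5.62% and 1.86%, a comparison chosen after seeing the data, so the members' share with the brighter changed site lay below the first background and above the second. The changed member was brighter in 178 pairs and the E-box member in 70, with 8 equal, and the differences had a median of -0.07 in log2 units beside 0 over all pairs. An unadjusted p under 0.05 by the exact permutation test was reached in 67 pairs, 53 of them with the brighter changed site. These are 26.2% of the pairs, beside 29.1% over all pairs of the array. These differences are of a few scanner units: the median levels of the libraries were 60.5 and 63.0.

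The first varied base, which directly follows the site, divided the calls of the 6-4PP non-UV array. All 9 pairs with the brighter E-box began with C. Of the 16 pairs with the brighter changed site, 0 began with C, 6 with A, 4 with G and 6 with T. Beside AGTC, AGTA and AGTT, the pairs beginning with A were AAAA with an E-box median of 57.0 and a changed median of 65.0, AGGA with 55.5 and 65.0, and ATAC with 60 and 64.0. Those beginning with G were GCCC with 58.5 and 65.5, GGGG with 58.0 and 65.5, GGTC with 56.0 and 63.5, and GTGC with 58.0 and 67.0. Those beginning with T were TAAG with 60.5 and 66.0, TCAC with 55.5 and 64.5, TCGC with 55.0 and 63.5, TGAT with 57.0 and 65.5, TTCA with 57.0 and 66.0, and TTGC with 58.0 and 63.0. All 16 E-box members of these pairs lay between 55.0 and 60.5. With the spatially adjusted intensity 7 of the 9 and 11 of the 16 were still called, in the same direction.

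Medians by first base showed the same division. Among the 64 pairs beginning with C the E-box median was 64.0 and the changed median 62.0, and the E-box member was brighter in 39. With A they were 60.5 and 64.0, with G 59 and 62.0, and with T 59.3 and 63.5. The E-box member was the brighter in 10, 14 and 7 of 64 pairs in these classes. The median difference was 0.05 with C and -0.09 in each of the other classes. Among the 20 brightest E-box probes 18 began with C, and among the 20 brightest changed probes 3 did.

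The second varied base divided the C pairs further. Pairs beginning with CC had medians of 70.0 with the E-box and 63.3 with the changed site, and the E-box member was brighter in 14 of 16. Pairs beginning with CA gave 64.0 and 61.0, with 12 of 16. Pairs beginning with CT gave 66.8 and 65.3, with 10 of 16. Pairs beginning with CG gave 56.8 and 59.8, with 3 of 16. Hence the C pairs with a following G lay on the side of the pairs without C. The 8 pairs with C followed by pyrimidines only gave 71.5 and 66.3.

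CCTT was the brightest E-box probe of the 6-4PP non-UV array. It gave 95 with the E-box, with spots from 85 to 103, and 71.0 with the changed site, with spots from 62 to 83, without overlap. Its mean log2 difference was 0.42 ± 0.06 (SE), with an adjusted p of 0.00213 by the exact permutation test. On the 6-4PP UV array CCTT gave 25642, with spots from 22711 to 34614, against 21403, with spots from 18538 to 27702 (adjusted p = 0.0401, exact permutation test). With the anti-CPD antibody the members of CCTT were alike in level, with 36.5 and 36.5 on the non-irradiated array and 7713 and 7764 on the irradiated one.

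CCCT gave 83.0 with the E-box and 65.5 with the changed site on the 6-4PP non-UV array (adjusted p = 0.0391, exact permutation test). CCCA gave 73.5 and 59.5 (adjusted p = 0.0109, exact permutation test). Under irradiation CCCT gave 10241 and 10204 with the anti-6-4PP antibody (adjusted p = 0.656, exact permutation test). The other 6 called pairs beginning with C were CATT with 78.0 and 64.0 on the 6-4PP non-UV array, CAAT with 74.0 and 63.5, CCTC with 72.0 and 64.0, CCTG with 70.5 and 63.5, CACT with 70.0 and 58.5, and CTCA with 69.5 and 62.0.

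Part of these probes was printed a second time, which gives the error between separate sets of spots on 1 array. All 64 pairs beginning with C occur again, with identical sequences, in the libraries MITF_Ex_ebox_59 and MITF_Ex_sebox_59, where the C is fixed and the varied window starts 1 base later. On the 6-4PP non-UV array all 9 called pairs had the brighter E-box in the second printing too, and 3 were called again, CCCA, CCCT and CCTT. Over all 64 repeated pairs the E-box was brighter in 42 in the second printing, and 5 were called so. There CCTT gave 96.5 and 71.0 (adjusted p = 0.00213, exact permutation test), CCCT 78.0 and 64.0 and CCCA 76.5 and 66.5. On the 6-4PP UV array the second printing of CCTT gave 22393 and 21663 and was not called (adjusted p = 0.636, exact permutation test).

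The 128 sequences printed in both places set a scale for the pair differences. Medians of 1 sequence differed between printings by a median of 0.07 on the log2 scale on the CPD non-UV array, 0.21 on CPD UV, 0.06 on 6-4PP non-UV and 0.08 on 6-4PP UV. The 95th percentiles of that difference were 0.18, 0.79, 0.15 and 0.31. Of the site pairs, 31 differed by more than this on CPD non-UV, 25 on CPD UV, 64 on 6-4PP non-UV and 15 on 6-4PP UV. These are 12.1%, 9.77%, 25% and 5.86% of the pairs, where 5% of the repeated sequences, all beginning with C, lie beyond the same limit by construction. Thus on the 6-4PP UV array the share of site pairs past the limit was near that of repeats of one sequence. There 24 pairs had both members at the ceiling and so no difference, which lowers that share. On both CPD arrays the share was higher, and on the 6-4PP non-UV array it was highest. The pair differences of the 64 repeated pairs had a Pearson correlation between printings of 0.71 on 6-4PP non-UV, 0.31 on CPD non-UV and 0.10 on each irradiated array.

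The 60-base probes with the same sites give other sequences with the same varied bases. There, on the 6-4PP non-UV array, the E-box member was brighter in 36 of 64 pairs with C after the site, and in 11, 18 and 7 of 64 with A, G and T. The calls there did not divide by first base as they did in the 59-base probes. Of 7 with the brighter E-box, 1 began with A, 2 with C and 4 with G, and of 14 with the brighter changed site, 5 began with A, 2 with C, 1 with G and 6 with T. CCCA and CCTT were called brighter with the E-box in both lengths, which is 2 of 9 calls here and 2 of 7 there. No pair was called brighter with the changed site in both lengths. Such calls made up 6.25% of the pairs here and 5.47% there, and with shares this small an empty overlap says little. AGTC gave 53.5 and 61.0 in the 60-base probes (adjusted p = 0.199, exact permutation test) and AGTA 57.0 and 62.0 (adjusted p = 0.278, exact permutation test), so neither was called there. AGTT gave 57.0 and 64.5 and was not called either (adjusted p = 0.0944, exact permutation test). AGTG gave 61.5 and 56.0 and was called brighter with the E-box (adjusted p = 0.0434, exact permutation test). That is the opposite direction from the AGT pairs with 59 bases.

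In the MITF_Ex libraries, where every probe has C after the site, the E-box was called brighter on the 6-4PP non-UV array in 33 pairs with 59 bases and in 47 with 60 bases. These shares, 12.9% and 18.4%, stand beside 14.1% of the C pairs described here. The changed site was called brighter in 3 and 2 pairs there. The 59-base set includes the 64 repeated pairs.

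The varied bases moved the signal of both libraries by amounts far above the site differences. With a single dipyrimidine step the anti-CPD signal on the CPD UV array was highest for TT, with medians of 5681 for E-box and 5902 for changed probes over 20 pairs. TC gave 3625 and 4089 over 28 pairs, CT 2618 and 2871 over 12, and CC 2107 and 2134 over 20. For 6-4PP UV, TC came first, with 16426 and 17162, then TT with 9196 and 9910, CC with 6333 and 6658, and CT with 5197 and 5490. Both libraries gave the same order of step types on each irradiated array.

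Counted on both strands, more steps went with more signal in both libraries. With 1, 3 and 5 steps the CPD UV medians were 3284, 4793 and 5408 for E-box probes and 3668, 5197 and 5469 for changed probes. The 6-4PP UV medians were 8486, 23411 and 34926, and 8661, 22638 and 35216. Counted on the listed strand alone, the medians did not rise with each step. For 0, 1, 2 and 3 such steps the E-box medians were 4333, 3921, 5182 and 5046 on CPD UV. On 6-4PP UV they were 17818, 16858, 35319 and 19782. The changed probes gave 4502, 4588, 5795 and 4555, and 18360, 16903, 34253 and 19194.

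The bases at the edges of the varied window carried much of the range. A first base of A, which places TC across the edge of the site, gave 6-4PP UV medians of 35878 for E-box and 35216 for changed probes. C gave 14469 and 15103, G 18685 and 19180, and T 16197 and 16697. A last base of A, which places TT on the opposite strand with the A that follows, gave CPD UV medians of 6275 and 6319. C as the last base gave 2782 and 3288, G 4232 and 4487, and T 3982 and 3892. The 2 middle bases, in smaller classes, spanned a wider range than either edge base. Their lowest E-box medians were 2448 for GG on the CPD UV array and 11092 for CA on the 6-4PP UV array. The highest class was TT in both libraries, with 9361 and 9307 on the CPD UV array and 64317 and 62545 on the 6-4PP UV array. Of the 16 pairs with TT in the middle, 8 E-box and 7 changed members lay at the ceiling on 6-4PP UV, which limits both levels.

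Preset varied bases with one central step show the step and its flanks together. With A on both sides of the central step, each probe also held a TC across the edge of the site and a TT after the window, and with G on both sides a CC and a TC. On the CPD UV array ATTA gave 12176 with the E-box and 11695 with the changed site, ATCA 8983 and 6887, ACTA 7566 and 8687, and ACCA 5031 and 6438. With G flanks GTTG gave 6697 and 7640, GTCG 3241 and 2420, GCTG 3259 and 3665, and GCCG 3168 and 2947. Each pair was dimmer with G flanks than with A flanks around the same step, in both libraries, as a description of these medians.

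With the anti-6-4PP antibody after UV, ATTA and ATCA were at the ceiling, GTTG gave at least 65535 and 63986, and GTCG gave 49275 and 40684. ACTA gave 28001 and 22891 beside 27932 and 30729 for GCTG. ACCA gave 24752 and 24177 beside 23525 and 22448 for GCCG. A central TT or TC thus lay above a central CT or CC with either flank. Of these 8 pairs ACTA was the only one called on an irradiated array.

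Runs of 1 base differed in the same way in both libraries. On the CPD UV array AAAA gave 10601 and 10463, TTTT 11860 and 12104, GGGG 3720 and 3018, and CCCC 2394 and 2226. With 6-4PP UV, AAAA gave 38481 and 36972, GGGG 33056 and 29383, TTTT 19832 and 17292, and CCCC 14153 and 14022. AAAA and GGGG hold 5 steps, all on the opposite strand, and TTTT and CCCC hold 3 on the listed strand. No pair among these 4 was called on an irradiated array.

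Single steps next to the site can be read one by one. With a lone CC across the edge of the site (first base G, 8 pairs), the changed member was brighter in 8 of 8 on the 6-4PP UV array, with medians of 6981 and 7740. The median of these differences was only -0.04 in log2 units, and -0.05 with the spatially adjusted intensity. The class medians with that intensity, taken over each library alone, went the other way, with 7657 and 7559. With a lone TC there (first base A, 8 pairs), the E-box member was brighter in 6 of 8, with 16361 and 15690. With a lone CT on the listed strand directly after the site (4 pairs), the changed member was brighter in 4 of 4 on both irradiated arrays, with 4350 against 5491 for 6-4PP and 2048 against 2708 for CPD. The second printing did not keep this in every pair. There the E-box member was brighter for CTGT on 6-4PP UV, with 5036 against 4138, and for CTAC on CPD UV, with 3558 against 2269. The rest of these CT pairs kept the brighter changed member there on each irradiated array. Of these 20 pairs, GCGC was the only one called on the 6-4PP UV array, and none was called on the CPD UV array, so the counts describe small classes. The classes with a lone CC, TC or TT on the listed strand directly after the site (4 pairs each) were mixed on 6-4PP UV. In each of them the changed member was brighter in 3 of 4.

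Every probe of both libraries was brighter on the irradiated than on the non-irradiated array of its antibody, with no replicate check of that difference. For CPD the irradiated over non-irradiated ratio had a median of 149-fold over E-box probes, from 38.9 (GGCG) to 337 (AAAA), and of 161-fold over changed probes, from 46.6 (GTAT) to 332 (AAAA). For 6-4PP the medians were 310-fold, from 66.4 (CTAT) to 1170-fold (GGTG), and 306-fold, from 71.2 (CGGC) to 1057 (ATTT). Ratios at the 6-4PP ceiling are lower bounds.

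The irradiated minus non-irradiated log2 difference was compared between the members of each pair as a description. For CPD its E-box minus changed median was -0.08, from -1.82 (GGCG) to 1.11 (TCTC), and it was above 0 in 105 pairs. For 6-4PP only the 227 pairs with neither member at the ceiling have a direction. Their median was 0.06, from -0.49 (GCGC) to 0.77 (AGTC), and it was above 0 in 144 pairs and below in 83. This shift for 6-4PP stands beside a median difference of -0.07 on the non-irradiated array and 0.0065 on the irradiated one. AGTC had the brighter changed member on the non-irradiated array and the brighter E-box member, without a call, on the irradiated one.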

How the data were processed

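Each array held 62976 spots. The deposited files give the intensity of the Alexa488 label per spot on a linear scale, with and without flagged spots, and a spatially adjusted intensity, per the file headers. The labels refer to a manuscript for laboratory steps. The Cy3 column held 1 throughout and gave no correction for DNA amount. Unflagged, unadjusted intensity was the main value, and a probe needed 3 such spots. Replicate spots were tested in Python 3.11.15 (numpy 2.4.6, pandas 2.3.3) over all 184756 splits of 10 and 10 spots, and the script was tested on simulated data. Spots of 1 array share its irradiation and hybridisation, so p-values measure only technical spread. The members and lists were chosen with earlier results of these data known. Pairs were named by a rule: per irradiated array the 5 highest and 5 lowest differences, the 3 brightest and the 3 dimmest, per non-irradiated array the 3 highest and 3 lowest, and 12 preset sets of varied bases. Called pairs, AGTT and pairs called with the adjusted intensity were named after their values had been seen.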

Additional observations from a re-analysis of the deposited data

How the results depend on the processing

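Counts are pairs with the brighter E-box or the brighter changed site, by the permutation test of spots. On CPD non-UV the count with the brighter changed site, 1, became 3 with the spatially adjusted intensity, and 0 with a difference of medians, an adjusted p under 0.01 or both medians above the array median. On CPD UV it went from 0 to 2 with the adjusted intensity. On 6-4PP non-UV the 9 with the brighter E-box became 3 with a difference of medians, 1 at 0.01 and 0 at 1.5-fold. The 16 with the brighter changed site became 8, 2 and 0 under these settings, and 3 with both medians above the array median. On 6-4PP UV the 5 with the brighter E-box became 1 with the adjusted intensity, 2 with a difference of medians, and 1 at 0.01 and at 1.5-fold. The 1 with the adjusted intensity was GTTG, which is not among the 5. The 1 with the brighter changed site became 0 with a difference of medians, the rank sum, flagged spots kept, 0.01 or both medians above the array median. With the adjusted intensity GCCT was called in place of GCGC. Reading the 6-4PP arrays by title exchanges their values: the library medians become 19819 and 19215 without UV and 60.5 and 63.0 with it, and the counts 5 and 1 without UV and 9 and 16 with it. The cause of these changes was not tested, apart from stricter limits, which can only lower a count, and the title, which exchanges the arrays. The other 151 values of the comparisons stayed within 1.5 times (counts) or within the spread of spots, although 15 of 54 class medians changed sign with the adjusted intensity and 2 of 4 with the listed strand alone. Of the 88 differences of named pairs, none of the called ones changed sign, but 18 uncalled ones did with the adjusted intensity, 9 did with the mean of log2 spots and 0 with flagged spots kept. Over these settings 3 gained a call and 6 lost one. No paired analysis was possible because each group held 1 array. Dim non-irradiated levels and the ceiling limit what could be detected.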

Other observations

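Pair differences (E-box minus changed, log2) on the CPD UV and 6-4PP UV arrays had a Pearson correlation of 0.26 over the pairs, and of 0.04 with the spatially adjusted intensity. Probes on these arrays share their sequences, and the part of array position was not tested.

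In the 60-base probes, the E-box was called brighter on both non-irradiated arrays in 4 pairs whose varied bases read GT, any base, A. None of the matching 59-base pairs was called on either array. On the 6-4PP non-UV array they gave 65.0 with the E-box and 60 with the changed site for GTAA, 63.5 and 62.5 for GTCA, 59 and 63.0 for GTGA, and 59.5 and 62.0 for GTTA.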
